A study of Mus musculus with 96 samples.

Results

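The proximal straight tubule was compared between its cortical part (PTS2), which runs in the medullary rays, and its terminal part (PTS3), which lies in the outer stripe of the outer medulla. The comparison rests on 14 of the 93 microdissected samples of the series, chosen by the segment name in the sample label: 8 samples of PTS2 and 6 of PTS3. They came from male C57BL/6 mice aged 6 to 8 weeks with free access to water and normal chow; no group carried a transgene, deletion or drug treatment. The PTS2 samples were 8 pieces of tubule from 5 mice and the PTS3 samples 6 pieces from 3 mice, and pieces of 1 mouse were averaged so that the mouse was the replicate. The first part of the convoluted tubule (PTS1, 5 samples from 3 mice) is given beside them for reference. Polyadenylated RNA from each piece was amplified with a kit for very small inputs, and abundance was deposited as TPM, a unit that corrects for transcript length and has a fixed total per sample. TPM keep no record of read number, so sequencing depth is unknown here and no counting interval can be given. A level below is a TPM value; a difference is PTS2 minus PTS3 on the log2(TPM + 1) scale with its standard error, which understates the change of genes with low TPM. Unless stated otherwise, standard errors and adjusted p come from a fit over all 15 groups. They do not measure the spread of the PTS2 and PTS3 mice alone.

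The proximal tubule reabsorbs most of the glucose, phosphate, bicarbonate and amino acids filtered by the glomerulus and takes up filtered protein through the endocytic receptors megalin and cubilin. Its straight part is known for the secretion of organic anions, cations and drugs, which enter from the blood by transporters of the basolateral membrane, and for cytochromes P450 and conjugating enzymes. The terminal part lies in a region of low oxygen tension and is the part of the tubule most often injured by ischaemia. In male mice many proximal tubule genes respond to androgens, and the kidney androgen-regulated protein gene Kap is the classical example.

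All 8 mice showed proximal tubule transcripts. Lrp2, which encodes megalin, was at 75.7 to 90.3 TPM in the PTS2 mice and at 32.3 to 38.1 TPM in the PTS3 mice. The water channel gene Aqp1 was at 433.4 to 595.1 and 389.8 to 581.6 TPM, and the transcription factor gene Hnf4a at 122.4 to 155.0 and 104.5 to 129.9 TPM. Cubn, which encodes cubilin, was at 17.72 to 25.84 and 16.75 to 21.13 TPM. The proximal marker Slc34a1 was far lower in PTS3, at 4657.3 to 6367.7 TPM in PTS2 and 36.7 to 54.31 TPM in PTS3. The 10 PTS1 markers summed to 1129.5 to 1663.5 TPM in PTS2 and 709.0 to 779.0 TPM in PTS3, against a median of 15024.3 TPM in PTS1; Spp2, Slc2a2, Gatm, Slc7a7 and Slc4a4 were called for PTS2, and the defining genes Slc5a2 and Slc34a3 were listed at 0 in every PTS3 mouse. The part of PTS1 cells in the calls for PTS2 was not tested. The 6 endothelial, leukocyte, stromal, erythroid, podocyte and thin descending limb marker lists held 1 called gene, in the podocyte list. Their summed levels reached at most 171.0 TPM in PTS2 and 169.0 TPM in PTS3, and the defining podocyte genes Nphs1 and Wt1 were among those at 0 in PTS3.

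The segments are usually told apart by Cyp2e1 (ENSMUSG00000025479), a cytochrome P450 that oxidises ethanol and small solvents, and by Akr1c18 (ENSMUSG00000021214), a hydroxysteroid dehydrogenase that inactivates progesterone. Cyp2e1 stood at 1170.5, 788.4, 1072.6, 709.8 and 1201.5 TPM in the 5 PTS2 mice and at 0.95, 0 and 0 TPM in the 3 PTS3 mice. The PTS2 level was thus high in every mouse, and the PTS3 level was at or near the bottom of the scale in every mouse. The difference was 9.60 ± 0.56 (adjusted p = 8.49e-18), the largest of all genes tested. Akr1c18 ran the other way, at 234.9, 164.4, 195.2, 134.7 and 269.9 TPM in PTS2 against 958.2, 815.4 and 1093.3 TPM in PTS3. It was abundant in both segments, without overlap of mice, and differed by -2.29 ± 0.35 (adjusted p = 3.1e-06). In PTS1 the mean level was 55.6 TPM for Cyp2e1 and 0.07 TPM for Akr1c18.

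To show the DNA in front of these genes, the 250 bases before the start are given for both markers, for Kap, the most abundant transcript of both segments, and for Mal, which outside the mitochondrial genome had the widest difference in favour of PTS3 among the genes named by rule. The sequences are those of RefSeq (GRCm38.p6), written 5′ to 3′ on the strand of the gene and ending at the base before the start. Capitals mark TATAAA, the core of the TATA box, searched on both strands together with an HNF1 motif (GTTAAT, any base, then ATT), the HNF4 motif CAAAGTCCA and an androgen and glucocorticoid receptor motif (AGAACA, 3 bases of any kind, then TGTTC). None of the printed windows held overlapping matches. Cyp2e1 lies on chr7:140763569-140763818 (plus strand), Akr1c18 on chr13:4150647-4150896 (minus strand), Kap on chr6:133853668-133853917 (minus strand) and Mal on chr2:127656696-127656945 (minus strand).
Cyp2e1: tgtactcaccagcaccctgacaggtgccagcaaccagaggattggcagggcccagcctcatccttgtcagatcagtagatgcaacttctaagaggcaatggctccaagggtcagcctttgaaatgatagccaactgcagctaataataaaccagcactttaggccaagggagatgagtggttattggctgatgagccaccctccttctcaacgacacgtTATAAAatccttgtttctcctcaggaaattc
Akr1c18: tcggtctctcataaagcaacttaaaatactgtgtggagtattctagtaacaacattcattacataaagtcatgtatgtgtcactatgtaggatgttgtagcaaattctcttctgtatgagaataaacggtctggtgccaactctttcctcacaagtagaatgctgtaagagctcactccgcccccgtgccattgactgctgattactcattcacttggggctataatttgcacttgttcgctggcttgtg
Kap: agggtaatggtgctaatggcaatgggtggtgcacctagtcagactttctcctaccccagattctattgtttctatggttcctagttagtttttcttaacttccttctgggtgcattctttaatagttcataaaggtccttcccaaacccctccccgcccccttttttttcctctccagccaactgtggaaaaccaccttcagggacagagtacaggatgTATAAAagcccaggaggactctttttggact
Mal: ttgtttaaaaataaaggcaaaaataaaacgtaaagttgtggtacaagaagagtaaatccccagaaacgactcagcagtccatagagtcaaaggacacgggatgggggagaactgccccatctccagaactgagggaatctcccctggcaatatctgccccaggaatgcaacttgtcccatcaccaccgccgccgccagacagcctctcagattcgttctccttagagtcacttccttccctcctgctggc
Cyp2e1 and Kap each held TATAAA beginning 31 bases before the start, and the windows of Akr1c18 and Mal held none of the 4 motifs. TATAAA was present in 12.4% of 32851 RefSeq promoter windows, in 6.45% of the windows of genes expressed in the straight tubule, in 7.14% of those of genes higher in PTS2 and in 10.4% of those of genes higher in PTS3. The HNF1 motif was present in 0.371% of all windows, 0.281% of expressed ones, 0.521% for PTS2 and 0.518% for PTS3. The HNF4 motif was present in 0.384%, 0.351%, 0.595% and 1.04% of the same sets, and the receptor motif in 0.0304%, 0.0438%, 0.223% and 0%. The HNF1, HNF4 and receptor shares rest on 7, 8 and 3 of 1344 windows (1023 genes) for PTS2. For PTS3 they rest on 1, 2 and 0 of 193 windows (157 genes). These counts are too small to compare the shares, and no difference between the sets was tested. A match describes letters and is not evidence of binding.

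A gene was called when its adjusted p was below 0.05 and its difference at least 1 in size. Of 33793 genes tested, 1588 (4.7%) were called, 1333 (3.94%) higher in PTS2 and 255 (0.755%) higher in PTS3. Over the 12007 genes at a TPM of 1 or more in at least 3 of the 8 mice, here termed expressed, the shares called were 13.2% in either direction, 11.1% higher in PTS2 and 2.09% higher in PTS3. Mice of the segments did not overlap for 1302 of the 1333 and 247 of the 255 genes. Over all expressed genes, called or not, mice did not overlap for 48.1%, with PTS2 above in 33.8% and PTS3 above in 14.3%. The sides differed in reach: 79 genes exceeded PTS3 by 3 log2 units or more and the widest gap was 9.6, while 3 genes exceeded PTS2 by that much and the widest gap was 3.37. Protein-coding genes made up 1296 of the calls for PTS2 and 169 of those for PTS3.

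**Figure D1:**
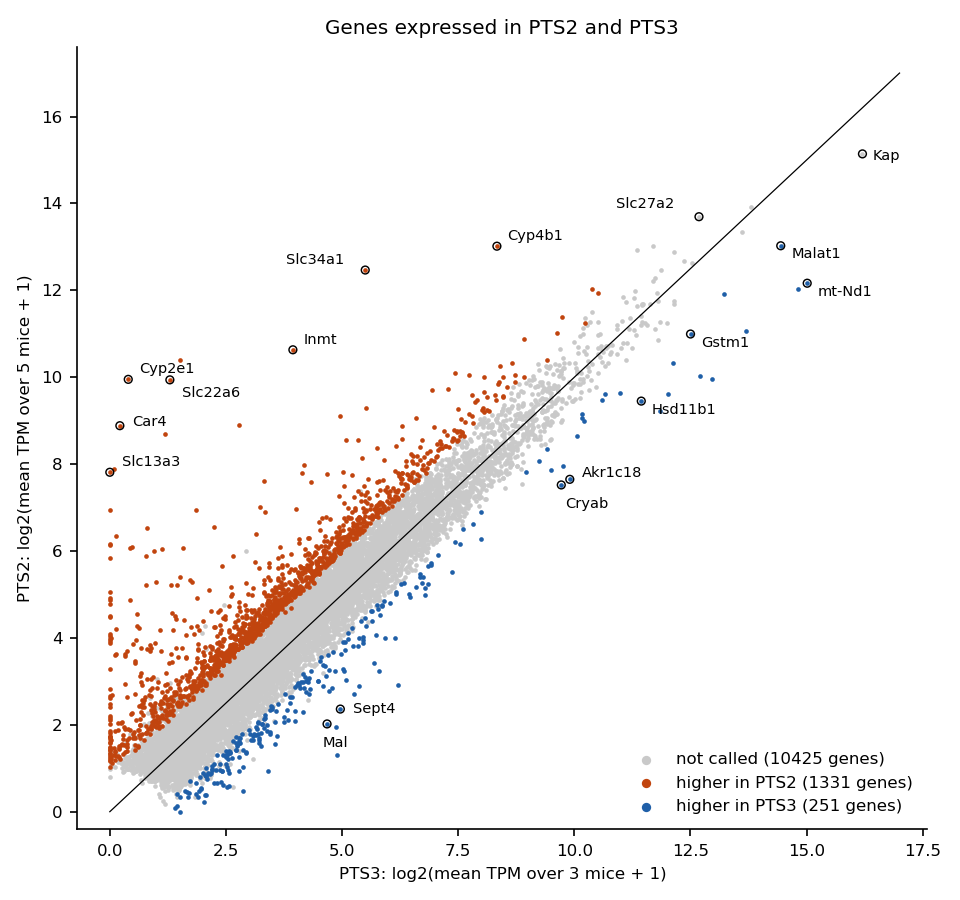
Mean level in PTS3 (x axis, log2 of mean TPM + 1, 3 mice) against PTS2 (y axis, 5 mice) for the 12007 expressed genes, 1 point per gene, coloured by call, with the line of equal level. Cyp2e1 and Slc22a6 lie far above the line and near 0 in PTS3, while Akr1c18 and Gstm1, both higher in PTS3, are also present in PTS2.

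The balance between the directions depended on how the samples were scaled. The median difference of the expressed genes was 0.228 as deposited and 0.03 after each mouse was rescaled by the median of its gene ratios to the average mouse. Genes higher in PTS2 were 83.9% of the calls as deposited and 60% after rescaling (939 genes or 2.78% higher in PTS2 and 625 genes or 1.85% higher in PTS3, 4.63% together). Of the expressed genes, 7.65%, 4.88% and 12.5% were then called for PTS2, for PTS3 and in either direction. The median over the tested members of each list below kept its sign. The counts of each list are to be read against these shares of the expressed genes, 11.1% for PTS2 and 2.09% for PTS3 as deposited and 7.65% and 4.88% after rescaling. All 255 genes called for PTS3 and 893 of the 1333 called for PTS2 were called again in the same direction. Differences near 1 in favour of PTS2 are therefore to be read against this common shift of 0.228.

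**Figure D2:**
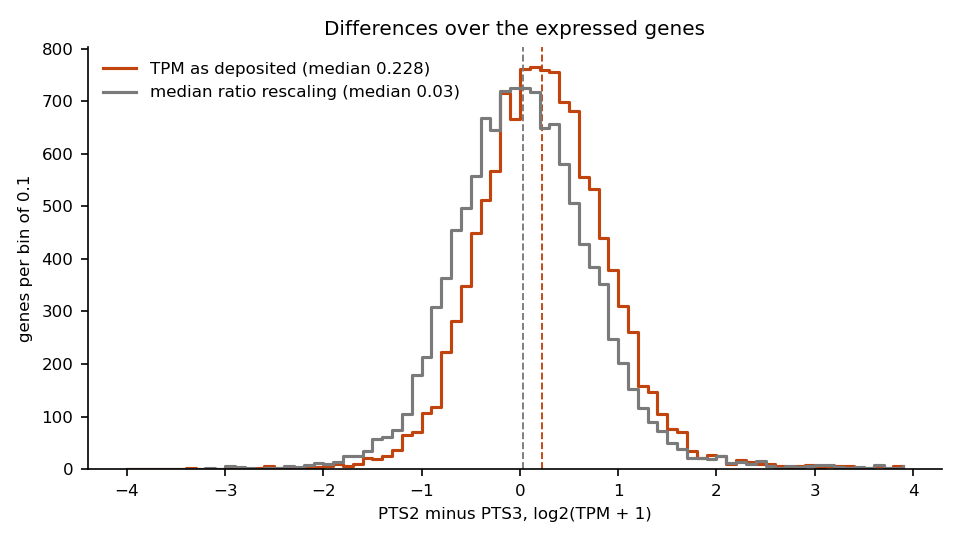
Histogram of the PTS2 minus PTS3 difference (x axis, log2(TPM + 1), bins of 0.1) over the 12007 expressed genes, as deposited and after median ratio rescaling, with dashed lines at the medians of 0.228 and 0.03. Genes beyond 4 log2 units, 37 as deposited and 43 rescaled, are not drawn.

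Mitochondrial transcripts moved with the segment. The 37 genes of the mitochondrial genome together took 0.829% to 2.95% of TPM in the 8 PTS2 samples, 8.52% to 14.0% in the 6 PTS3 samples and 5.62% to 8.93% in PTS1. No PTS2 sample reached the lowest PTS3 sample. All 9 mitochondrial genes that could be tested were higher in PTS3, by 1.82 to 3.07 log2 units. The complex I subunit gene mt-Nd1 was at 4443.9, 5762.4, 3627.0, 2567.8 and 6527.7 TPM in PTS2 and at 28856.7, 39711.9 and 30578.6 TPM in PTS3 (difference -2.92 ± 0.25, adjusted p = 1.18e-12). The other 28 mitochondrial genes, among them mt-Co2, mt-Co3 and mt-Atp6, were listed at 0 in all 93 samples, so the share is of those that were quantified, and 51.1% of the 50-base stretches of mt-Co1 and 62.2% of those of mt-Nd4 also occur in transcripts of other genes. Of 87 nuclear genes of the respiratory chain and ATP synthase, limma called 0 for PTS3 and 3 for PTS2 (Sdha, Cox7a1 and Cox6b2, the last named after its values were seen). At an unadjusted p below 0.05, 32 were higher in PTS3 and 16 higher in PTS2, and after rescaling 1 was called for PTS3 and 2 for PTS2. The median difference of the 82 expressed members was -0.17 against 0.228 for all expressed genes, and -2.7 for the tested mitochondrial genes. Limma gave adjusted p-values below 0.05 without a difference of 1 for Ndufb8, at 2379 to 2598 TPM in PTS2 and 3385 to 4052 TPM in PTS3 (-0.58 ± 0.13, adjusted p = 0.00135), and for Atp5b, at 5345 to 6001 and 3268 to 3997 TPM (0.60 ± 0.15, adjusted p = 0.00402).

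The most abundant single transcript, Kap, was at 29994.2, 35546.2, 40039.8, 27410.3 and 47510.2 TPM in PTS2 and at 63323.1, 83371.5 and 79430.7 TPM in PTS3. The mice did not overlap, but the gene was not called when all 15 groups shared 1 estimate of spread (-1.08 ± 0.91, adjusted p = 0.88). With PTS2 and PTS3 alone in the fit it was called (adjusted p = 0.000414). The 3 PTS1 mice were at 742.4, 15.2 and 3.95 TPM. The nuclear noncoding RNA gene Malat1 was at 6682.9 to 9651.4 TPM in PTS2 and 17600.8 to 27417.1 TPM in PTS3 (-1.39 ± 0.23, adjusted p = 8.45e-06). Its call was lost with quantile normalization (-0.44, adjusted p = 0.142). With the mitochondrial genes and Kap left out and each sample brought back to the same total, 885 genes were called for PTS2 and 446 for PTS3. The other calls below are shown as deposited.

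**Figure D3:**
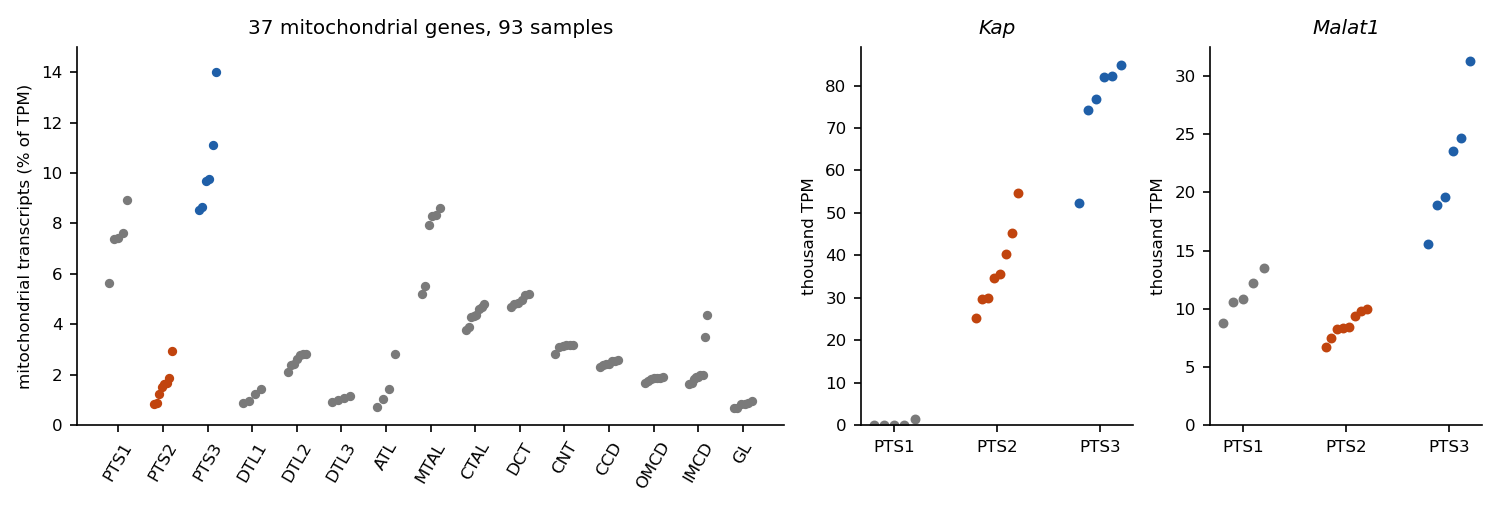
Share of TPM in mitochondrial genes for every sample of the 15 groups (left, y axis in percent), and Kap and Malat1 levels in PTS1, PTS2 and PTS3 (y axes in units of 1000 TPM), 1 point per sample sorted within its group. The 6 PTS3 samples, at 8.52% to 14.0%, lie above all 8 PTS2 samples, at 0.829% to 2.95%.

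Transcript length also moved with the difference. Among 8431 genes with a mean of at least 5 TPM over the 8 mice, the median difference was 0.143 for transcripts up to 1000 bases, 0.229 up to 2000, 0.523 up to 4000 and 0.673 above 4000. The share called for PTS2 was 10.4%, 10.7%, 19.6% and 25.9% in these classes, and the share called for PTS3 1.99%, 2.14%, 1.22% and 1.02%. With this trend removed from each mouse, and PTS2 and PTS3 alone in the fit, 739 genes were called for PTS2 and 526 for PTS3, among them 709 of the original 1333 and 246 of the original 255. Whether fewer cells of a kind or less RNA per cell lie behind a level cannot be told apart in these bulk samples.

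Several basolateral transporters of organic anions were listed at or close to 0 TPM in PTS3. Of the 28 organic anion and urate transporter genes, 8 were called for PTS2 and 0 for PTS3, and 8 and 1 after rescaling, against 11.1% and 2.09% of all expressed genes as deposited and 7.65% and 4.88% after rescaling. The median difference of the 22 expressed members was 0.758 against 0.228 for all expressed genes. Slc22a6, the basolateral organic anion exchanger OAT1, was at 1183.3, 866.2, 1138.6, 1032.5 and 683.0 TPM in PTS2 and at 1.27, 1.91 and 1.18 TPM in PTS3. Its level fell close to 0 in all 3 PTS3 mice (8.70 ± 0.40, adjusted p = 3.49e-21). Slc13a3, the dicarboxylate carrier NaDC3 that feeds this exchanger with its counter-ion, was at 174.0 to 283.8 TPM in PTS2 and listed at 0 in all PTS3 mice. Slc22a8, the related exchanger OAT3, was at 34.2 to 82.3 TPM in PTS2 and at no more than 0.005 TPM in PTS3. Its mean in PTS1, 257.7 TPM, was higher still. The organic anion transporter gene Slco1a1 was at 321.0 to 487.2 TPM in PTS2 and 28.4 to 50.9 TPM in PTS3 (3.37 ± 0.39, adjusted p = 7.14e-09). Other members stayed abundant in PTS3: Slc22a7, the exchanger OAT2, was at 2223.0 to 2790.7 TPM in PTS2 and 1282.1 to 1687.0 TPM in PTS3, and Slc17a3, an apical organic anion efflux transporter, at 1107 to 1357 and 665 to 1008 TPM, with differences of 0.76 ± 0.40 and 0.64 ± 0.43 that did not pass (adjusted p = 0.321 and 0.61). With PTS2 and PTS3 alone in the fit the adjusted p were 0.00018 and 0.00132, but both differences stayed below 1.

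Among organic cation and carnitine transporters, 7 of 23 genes were higher in PTS2 and 0 higher in PTS3 (4 and 0 after rescaling), with a median of 1.14 over 16 expressed members. The carnitine transporter gene Slc22a5 was at 179.4 to 266.5 TPM in PTS2 and 22.8 to 26.7 TPM in PTS3 (3.09 ± 0.23, adjusted p = 2.7e-14), although 26.3% of its 50-base stretches also occur in other genes. The organic cation transporter gene Slc22a2, at 800.3 to 1003 against 325.7 to 403.3 TPM, was called with a difference of 1.24 ± 0.30 (adjusted p = 0.00248). The call of Slc22a2 was lost with a pseudocount of 0.1 (adjusted p = 0.205), with quantile normalization (0.97) and with the length trend removed (0.91). Slc47a1, the apical extruder MATE1, was at 772 to 986 TPM in PTS2 and 349.4 to 469.8 TPM in PTS3 and did not pass (1.12 ± 0.41, adjusted p = 0.0626). It passed under 5 alternatives, among them the fit of PTS2 and PTS3 alone (adjusted p = 1.29e-05), with adjusted p from 1.29e-05 to 0.478 over all of them.

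Of 31 transporters of phosphate, sulfate, sugars and carboxylates, 13 were called for PTS2 and 0 for PTS3 (12 and 0 after rescaling), with a median of 0.947 over 27 expressed members. Slc34a1, the apical phosphate cotransporter NaPi-IIa, was at 6057.9, 5367.2, 5845.4, 6367.7 and 4657.3 TPM in PTS2 and at 54.3, 41.6 and 36.7 TPM in PTS3. Every PTS2 mouse was far above every PTS3 mouse (7.04 ± 0.69, adjusted p = 1.03e-10), and PTS1, at a mean of 9502.4 TPM, was above both. The sulfate exchanger gene Slc26a1 was at 78.7 to 111.8 TPM in PTS2 and 3.1 to 4.44 TPM in PTS3 (4.52 ± 0.35, adjusted p = 6.65e-14). Slc16a1, a monocarboxylate carrier, was at 5.14 to 16.9 and 0 to 0.625 TPM and was called for PTS2 (3.16 ± 0.37, adjusted p = 1.29e-08).

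Among genes of sodium, acid-base and water transport, 15 of 37 were higher in PTS2 and 1, Aqp4, was higher in PTS3 (15 and 1 after rescaling); the 29 expressed members had a median of 1.11. Car4, the carbonic anhydrase anchored to the luminal membrane, was at 597.6, 414.7, 500.1, 490.5 and 354.7 TPM in PTS2 and at 0.485, 0 and 0 TPM in PTS3 (8.66 ± 0.39, adjusted p = 1.59e-21). Car14, another membrane carbonic anhydrase, was at 52.3 to 95.0 TPM in PTS2 and listed at 0 in all PTS3 mice, and Car12 was at 12.1 to 25.7 and 0.005 to 0.235 TPM. Aqp1, the water channel of both membranes of the proximal tubule, overlapped between the segments. Aqp3, a basolateral water and glycerol channel, was at 24.9, 28.7, 27.9, 33.1 and 31.6 TPM in PTS2 and listed at 0 in all PTS3 mice, while its mean in PTS1 was 50.7 TPM. Aqp4, another basolateral water channel, was at 2.9, 5.11, 7.58, 6.28 and 8.9 TPM in PTS2 and at 36.7, 25.8 and 17.5 TPM in PTS3, and was thus higher in all 3 PTS3 mice (-1.98 ± 0.25, adjusted p = 3.81e-08). The sodium pump subunit gene Atp1b1 and its regulator Fxyd2, the most abundant members not called, were at 692.5 to 850.1 and 3105 to 3843 TPM in PTS2 and at 407 to 489.2 and 4304 to 4708 TPM in PTS3.

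Markers of other segments also differed between PTS2 and PTS3. Of 11 collecting duct markers, Aqp2, Aqp3 and Hsd11b2 were called for PTS2 and Aqp4 for PTS3. The 11 markers summed to 38.3 to 49.2 TPM in PTS2 and 17.5 to 36.7 TPM in PTS3, most of it Aqp3 and Aqp4 in PTS2 and nearly all of it Aqp4 in PTS3. Without Aqp3 and Aqp4 the sums were 7.2 to 10.6 TPM and 0 to 0.005 TPM, and the defining markers Aqp2, Aqp3, Avpr2, Scnn1g and Hsd11b2 were at 0 in PTS3. Aqp2, the vasopressin-regulated channel of principal cells, was at 3.57 to 6.55 TPM in PTS2 and at 12274.1 to 17021.1 TPM in the cortical collecting duct samples, where Aqp3 was at 3662.8 to 4312.3 TPM. Of 10 thick limb and distal markers, Umod, Egf and Klk1 were called for PTS2. They summed to 17.7 to 34.9 TPM there and to 3.44 to 7.74 TPM in PTS3, with Kcnj1, Pvalb and Calb1 at 0 in PTS3. Whether these values come from other segments, and their part in the calls for PTS2, was not tested.

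**Figure D4:**
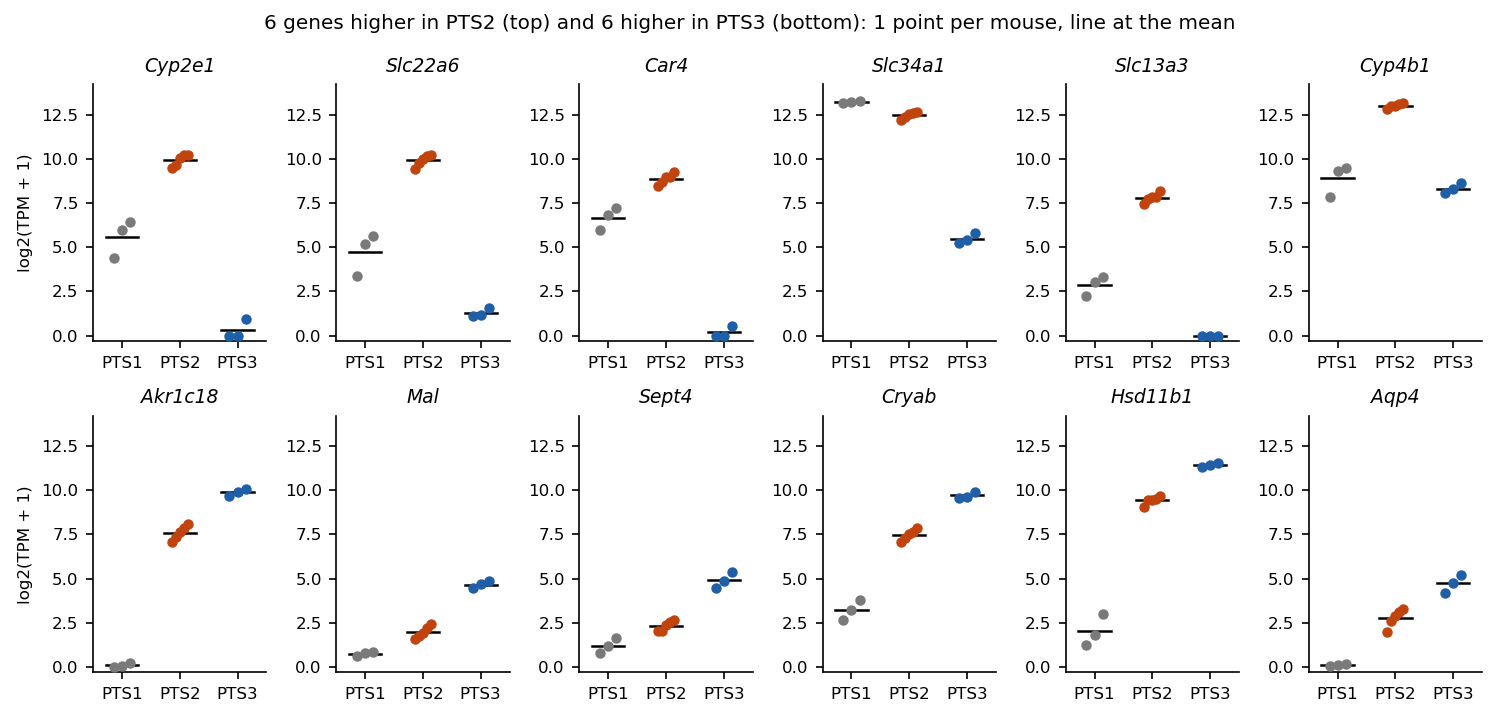
Level of 12 genes in each mouse of PTS1 (grey, 3 mice), PTS2 (red, 5 mice) and PTS3 (blue, 3 mice) as log2(TPM + 1), with a line at the mean; the upper row holds genes higher in PTS2 and the lower row genes higher in PTS3. Mice of PTS2 and PTS3 do not overlap in any panel, and the PTS1 mean of each of the 6 genes in the lower row lies below the PTS2 and PTS3 means.

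Of 33 amino acid and peptide transporter genes, 11 were called for PTS2 and 0 for PTS3 (8 and 0 after rescaling), with a median of 0.64 over 24 expressed members. Slc43a2 and Slc7a8 encode basolateral transporters of neutral amino acids. Slc43a2 was at 13.5 to 22.0 TPM in PTS2 and 0.27 to 0.98 TPM in PTS3 (3.64 ± 0.29, adjusted p = 2.03e-13), and Slc7a8 at 10.5 to 13.4 and 0.42 to 1.28 TPM (2.88 ± 0.36, adjusted p = 5.14e-08). Slc3a2, the heavy chain that several exchangers share, was at 74.4 to 119.0 and 16.3 to 29.97 TPM (2.21 ± 0.17, adjusted p = 5.96e-14). All 3 were higher still in PTS1, with means of 138.8, 372.9 and 983.6 TPM for Slc43a2, Slc7a8 and Slc3a2. Slc7a13, a cystine and aspartate transporter of the male straight tubule, was at 1941.8 to 2089.7 TPM in PTS2 and 1276.6 to 1763.0 TPM in PTS3 and did not pass (0.46 ± 0.44, adjusted p = 1). With PTS2 and PTS3 alone in the fit Slc7a13 had an adjusted p of 0.00264, but its difference stayed below 1.

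The endocytic apparatus was lower in PTS3 for part of its members. Of 22 genes, 7 were called for PTS2 and 0 for PTS3 (5 and 0 after rescaling), and all 22 were expressed, with a median of 0.813. Amn, which encodes amnionless, the membrane partner of cubilin, was at 252.2 to 498.6 TPM in PTS2 and 130.3 to 166.2 TPM in PTS3 (1.39 ± 0.29, adjusted p = 0.000382). The lysosomal genes Lamp1, at 1617.3 to 2358 against 649.7 to 891.1 TPM, and Lgmn, at 319.3 to 373.0 against 101.3 to 159.1 TPM, differed by 1.38 ± 0.18 and 1.38 ± 0.19 (adjusted p = 9.05e-08 and 4.66e-07). Folate receptor Folr1 and the receptor-associated protein gene Lrpap1, the most abundant members not called, were at 800.3 to 1033 and 1465 to 1645 TPM in PTS2 and at 441.9 to 585.6 and 1039 to 1271 TPM in PTS3.

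Brush border enzymes showed 12 of 32 genes higher in PTS2 and 1 higher in PTS3 (11 and 1 after rescaling), with a median of 0.928 over 29 expressed members. Alkaline phosphatase Alpl was at 54.9 to 93.0 TPM in PTS2 and listed at 0 in all PTS3 mice, and had a mean of 1033.1 TPM in PTS1. The peptidase gene Enpep, which trims angiotensin peptides, was at 51.0 to 69.4 and 0.4 to 1.35 TPM (5.18 ± 0.21, adjusted p = 1.35e-22), and the choline phosphodiesterase gene Enpp6 at 52.2 to 80.6 and 0.05 to 0.77 TPM. Not all members were called for PTS2. The metalloprotease gene Mep1a was at 2260 to 2882 TPM in PTS2 and 1105 to 1486 TPM in PTS3, without overlap of mice. It did not pass (0.95 ± 0.48, adjusted p = 0.277). With PTS2 and PTS3 alone in the fit its adjusted p was 5.61e-05, but the difference stayed below 1. Pdzk1ip1, a small membrane protein that activates a glucose cotransporter, was higher in PTS3 (599.5 to 746.0 against 1342 to 1894 TPM, -1.11 ± 0.17, adjusted p = 4.46e-06). Its mean in PTS1, 3486.5 TPM, was above both segments. Without PTS3 mouse 3 its difference was -0.95, which ends the call. Of 34 claudin and junction genes, 22 of them expressed with a median of 0.367, 5 were called for PTS2 and 1, Mal, for PTS3, against 11.1% and 2.09% of all expressed genes. After rescaling the list had 2 and 1 calls, against 7.65% and 4.88%. Mal, a proteolipid of apical membrane rafts, was at 2.82, 3.56, 2.45, 2.0 and 4.46 TPM in PTS2 and at 24.8, 21.1 and 27.8 TPM in PTS3, every PTS3 mouse being above every PTS2 mouse (-2.66 ± 0.15, adjusted p = 8.49e-18). The cadherin genes Cdh16 and Cdh1 were higher in PTS2 (1.94 ± 0.18 and 1.78 ± 0.21, adjusted p = 2.13e-11 and 1.35e-08), and the paracellular cation and anion pore genes Cldn2 and Cldn10 were not called (0.72 ± 0.33 and -0.14 ± 0.32, adjusted p = 0.195 and 1). With PTS2 and PTS3 alone in the fit Cldn2 and Cldn10 had adjusted p of 0.000341 and 0.424, with both differences still below 1 in size.

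Cytochromes P450 were called in both directions. Of 98 genes in the table, 61 were tested and 33 were expressed, and 11 were called for PTS2 and 2 for PTS3 (12 and 2 after rescaling). Over all expressed genes 11.1% and 2.09% were called, and over all genes tested 3.94% and 0.755%. The median difference was 0.651 over the expressed members and 0.081 over all 61 that were tested. Cyp4b1, an oxidase of fatty acids and foreign compounds that androgens induce, was at 8857.6, 7256.6, 9065.0, 8174.9 and 8044.7 TPM in PTS2 and at 393.5, 306.6 and 264.2 TPM in PTS3 (4.71 ± 0.46, adjusted p = 9.38e-11). The fatty acid hydroxylase gene Cyp4a14 was at 98.0 to 155.7 and 1.58 to 4.53 TPM, and Cyp2a5, which shares 37% of its 50-base stretches with other genes, at 45.8 to 113.3 and 0.235 to 0.43 TPM. In the other direction were Cyp39a1, at 0.43 to 1.505 and 2.3 to 7.33 TPM and named after its values were seen, and Cyp7b1. Cyp7b1, an oxysterol hydroxylase, was at 413.2, 420.2, 342.5, 329.6 and 500.4 TPM in PTS2 and at 1257.4, 815.6 and 1132.4 TPM in PTS3 (-1.40 ± 0.32, adjusted p = 0.00121). The most abundant members not called, Cyp2j5 and Cyp4a31, were at 985 to 1267 and 899 to 1089 TPM in PTS2 and at 697.7 to 959.4 and 476.4 to 640.2 TPM in PTS3.

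Conjugating enzymes gave 22 calls for PTS2 and 1 for PTS3 among 121 genes, of which 63 were expressed with a median of 0.71. The glucuronosyltransferase gene Ugt2b38 was at 1841.0, 1297.0, 1427.7, 1173.2 and 1007.9 TPM in PTS2 and at 2.52, 1.72 and 1.3 TPM in PTS3 (8.95 ± 0.49, adjusted p = 8.31e-19). Its neighbour Ugt2b37 was at 291.7 to 457.8 and 0.585 to 2.06 TPM. These closely related genes share 37.4% and 18.3% of their 50-base stretches with other family members, so reads may have been divided between them. The carboxylesterase gene Ces1e was at 22.7 to 30.4 TPM in PTS2 and at 0 in PTS3, and Inmt, an N-methyltransferase outside the list, at 1497.1 to 1642.8 and 6.78 to 20.5 TPM (6.82 ± 0.47, adjusted p = 1.92e-15). The gene of the list called for PTS3 was Gstm1, a glutathione transferase, at 1744.2, 2131.2, 2015.9, 1546.4 and 2755.0 TPM in PTS2 and 5506.0, 5736.8 and 6138.4 TPM in PTS3 (-1.53 ± 0.21, adjusted p = 2.58e-07), with 18.9% of its stretches shared. After rescaling the list had 21 calls for PTS2 and 6 for PTS3.

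In a list of 41 aldo-keto reductase, hydroxysteroid and steroid genes, 5 were called for PTS2 and 2 for PTS3 as deposited, and 3 and 4 after rescaling. The median of the 31 expressed members was 0.109, and over all expressed genes 11.1% were called for PTS2 and 2.09% for PTS3. Beside Akr1c18, the gene higher in PTS3 was Hsd11b1, which regenerates active glucocorticoid. It was at 686.1, 731.4, 710.6, 534.3 and 830.5 TPM in PTS2 and at 2773.3, 2571.0 and 2991.5 TPM in PTS3 (-2.004 ± 0.67, adjusted p = 0.0374), and at a mean of 3.62 TPM in PTS1. The call was not stable. It was lost when any 1 mouse other than PTS2 mouse 5 was left out (adjusted p = 0.0545 to 0.123), with no filter, with a pseudocount of 0.1 and with the replicate block, while the adjusted p with PTS2 and PTS3 alone in the fit was 4.84e-07. The related Akr1c21 and Akr1a1 were at 1348 to 1923 and 2170 to 2558 TPM in PTS2 and at 1496 to 1648 and 1108 to 1322 TPM in PTS3 and were not called. Of 18 genes associated with androgens in the male kidney, all of them expressed with a median of 0.69, 8 were called for PTS2 and 1, Cyp7b1, for PTS3 (9 and 2 after rescaling), against 11.1% and 2.09% of all expressed genes (7.65% and 4.88% after rescaling). Kap was higher in every PTS3 mouse while Acsm3, at 1868 to 2599 and 1972 to 2747 TPM, overlapped.

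**Figure D5:**
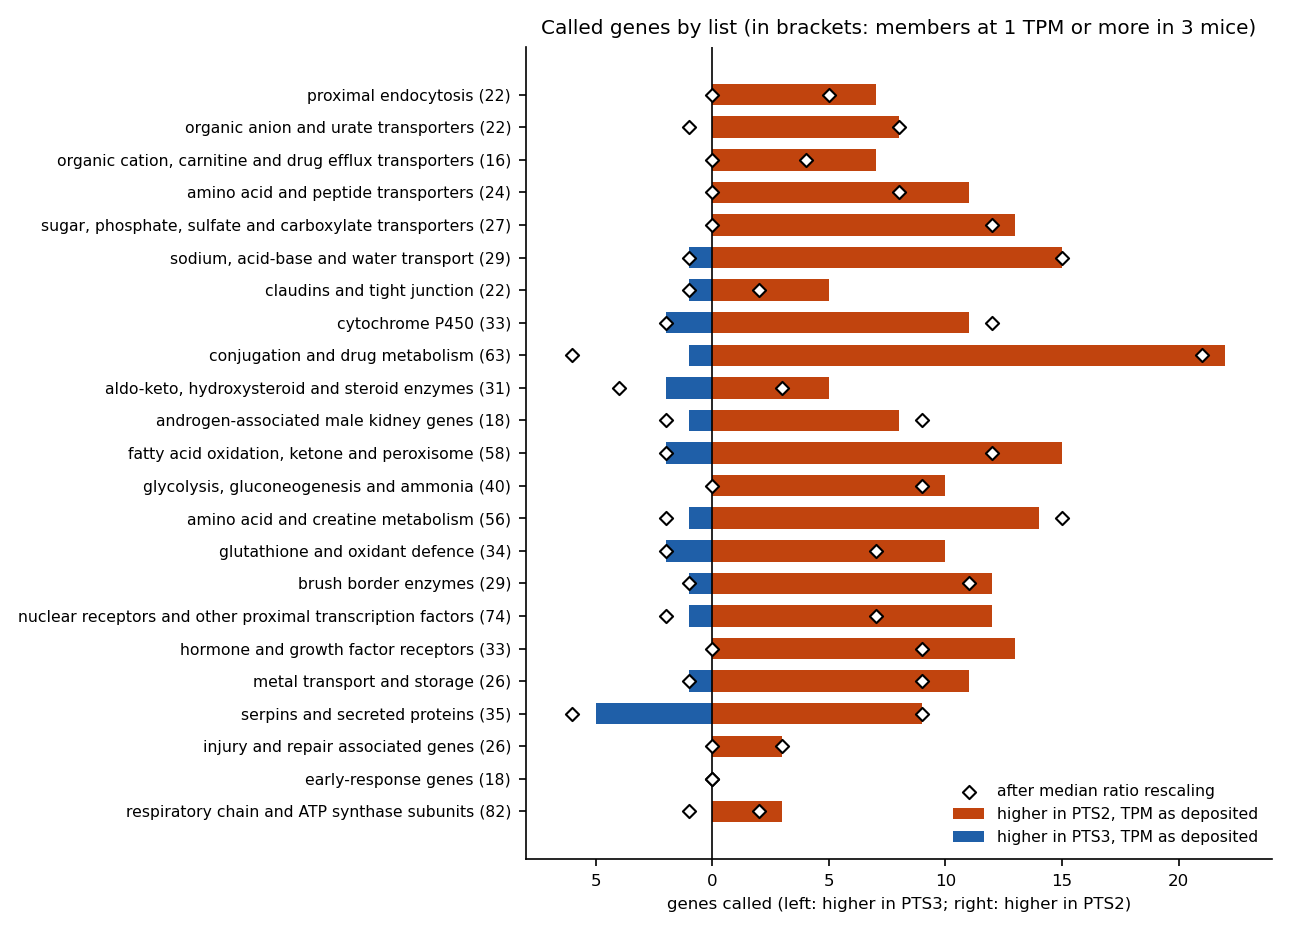
Number of called genes in each of 23 lists (bars to the right, higher in PTS2; bars to the left, higher in PTS3; x axis, genes) with the counts after median ratio rescaling as diamonds and the number of expressed members in brackets. Conjugation and drug metabolism has 22 genes for PTS2 and 1 for PTS3, and serpins and secreted proteins have 9 and 5.

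Of 61 genes of fatty acid oxidation, ketone and peroxisome metabolism, 15 were called for PTS2 and 2 for PTS3 (12 and 2 after rescaling), with a median of 0.734 over 58 expressed members. Acaa2, the last enzyme of mitochondrial beta-oxidation, was at 49.8 to 88.4 TPM in PTS2 and 1.66 to 2.6 TPM in PTS3 (4.75 ± 0.21, adjusted p = 1.07e-21), and Acsl1, which activates long-chain fatty acids, at 23.4 to 35.9 and 1.32 to 3.43 TPM. The 2 genes called for PTS3 encode fatty acid binding proteins. Fabp3 was at 5.56 to 8.26 TPM in PTS2 and 11.8 to 20.6 TPM in PTS3 (-1.03 ± 0.24, adjusted p = 0.00141), and Fabp4, known from adipocytes and endothelium, at 3.85 to 10.5 and 15.4 to 29.95 TPM (-1.46 ± 0.42, adjusted p = 0.0112); 29.2% of the stretches of Fabp3 are shared with a pseudogene. The PTS1 mean of Fabp3, 604.0 TPM, was far above both segments, and that of Fabp4 was 13.82 TPM. Without PTS3 mouse 1 the difference of Fabp3 was -0.80 and without PTS2 mouse 3 it was -0.97, and Fabp4 had an adjusted p of 0.0875 without PTS3 mouse 1 and 0.13 without PTS3 mouse 2, so both calls were lost. Beside Fabp4, the 10 endothelial markers summed to 57.8 to 138.0 TPM in PTS2 and 85.7 to 169.0 TPM in PTS3. None of them was called as deposited, 2 were called for PTS3 after rescaling and 1 with PTS2 and PTS3 alone in the fit; their part in the result was not tested. The very long chain acyl-CoA synthetase gene Slc27a2 was at 12281.7 to 14818.6 TPM in PTS2 and 5218.6 to 7646.3 TPM in PTS3 and passed with PTS2 and PTS3 alone in the fit (adjusted p = 6.28e-05) but not with all groups (1.03 ± 0.52, adjusted p = 0.284).

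The list of glycolysis, gluconeogenesis and ammonia genes and that of amino acid and creatine metabolism gave 10 of 46 and 14 of 64 gene symbols for PTS2, against 0 and 1 for PTS3 (9 and 15 against 0 and 2 after rescaling), with medians of 0.563 and 0.512 over 40 and 56 expressed members. G6pc, the last step of glucose release, was at 155.0 to 320.9 TPM in PTS2 and 13.8 to 21.4 TPM in PTS3 (3.61 ± 0.43, adjusted p = 1.47e-08), Gpt2, an alanine aminotransferase, at 21.7 to 23.99 and 1.01 to 2.06 TPM, and pyruvate carboxylase Pcx at 335.8 to 455.6 and 72.9 to 84.7 TPM. Fbp1, at 3250 to 3685 TPM in PTS2 and 1926 to 2370 TPM in PTS3, was not called. Gatm, the first enzyme of creatine synthesis, was at 10.3 to 35.2 and at most 0.015 TPM, against a mean of 4344.8 TPM in PTS1. The gene for PTS3 was Bcat1, which transaminates branched-chain amino acids in the cytosol. It was at 215.7, 133.6, 283.4, 189.8 and 344.2 TPM in PTS2 and at 949.6, 558.5 and 650.3 TPM in PTS3 (-1.71 ± 0.41, adjusted p = 0.00211), and Bckdhb, a subunit of the next enzyme of that pathway in mitochondria, ran opposite at 21.3 to 35.9 and 0 to 1.04 TPM (4.57 ± 0.22, adjusted p = 5.83e-21).

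Of 43 genes of glutathione and oxidant defence, 10 were called for PTS2 and 2 for PTS3 (7 and 2 after rescaling), with a median of 0.435 over 34 expressed members. Gpx1, the cytosolic glutathione peroxidase, was at 4684.2, 3767.3, 4190.0, 4340.2 and 4029.6 TPM in PTS2 and at 1381.0, 1274.0 and 1351.7 TPM in PTS3 (1.64 ± 0.13, adjusted p = 1.53e-13). The glutathione-degrading Ggt1 was at 3175 to 4562 and 1225 to 1650 TPM (1.43 ± 0.43, adjusted p = 0.0162), a call lost without PTS3 mouse 2 (adjusted p = 0.0986) and under 3 other alternatives, with adjusted p from 7.65e-06 to 0.0986 over all of them. Superoxide dismutase Sod1 was higher in PTS3, at 320.3, 315.7, 336.6, 306.1 and 358.1 TPM in PTS2 and 584.9, 747.5 and 717.7 TPM in PTS3 (-1.05 ± 0.12, adjusted p = 3.77e-09; -0.98 without PTS3 mouse 2, which ends the call), as was Chac2, a cytosolic enzyme of glutathione turnover, at 43.2 to 64.6 and 113.3 to 123.9 TPM (-1.26 ± 0.24, adjusted p = 9.72e-05). Of 34 genes of metal transport and storage, 26 of them expressed with a median of 0.799, 11 were called for PTS2 and 1 for PTS3 (9 and 1 after rescaling), against 11.1% and 2.09% of all expressed genes (7.65% and 4.88% after rescaling). The transferrin receptor gene Tfrc was higher in PTS2 (1.96 ± 0.35, adjusted p = 3.18e-05). The gene for PTS3 was the zinc and iron importer gene Slc39a14, at 55.7 to 88.2 TPM in PTS2 and 160.6 to 218.5 TPM in PTS3 (-1.39 ± 0.35, adjusted p = 0.00361).

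Receptors for hormones and growth factors were called in 1 direction. Of 59 genes, 13 were higher in PTS2 and 0 in PTS3 (9 and 0 after rescaling), and the 33 expressed members had a median of 0.851. Kl, which encodes klotho, the coreceptor of the phosphate hormone FGF23, was at 199.6, 197.2, 182.7, 227.3 and 160.4 TPM in PTS2 and at 6.6, 9.53 and 10.9 TPM in PTS3 (4.31 ± 0.32, adjusted p = 3.16e-14). The prolactin receptor gene Prlr varied between PTS2 mice, at 3.49, 7.79, 42.6, 29.8 and 28.1 TPM, and was at 0.625, 0.845 and 0 TPM in PTS3 (3.64 ± 0.41, adjusted p = 3.12e-09). The hepatocyte growth factor receptor gene Met and Tgfbr2, a receptor of transforming growth factor beta, were higher in PTS2 by 1.70 ± 0.19 and 1.66 ± 0.17 (adjusted p = 1.6e-09 and 4.34e-10). The parathyroid hormone receptor gene Pth1r, at 685.4 to 1178 and 470.7 to 613.6 TPM, had an adjusted p of 0.0453 with a difference of 0.84 ± 0.29, and the growth hormone receptor gene Ghr, at 2021 to 2325 and 1895 to 1963 TPM, was not called (0.19 ± 0.43, adjusted p = 1). With PTS2 and PTS3 alone in the fit Ghr had an adjusted p of 0.0498, with its difference far below 1.

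In a list of 95 transcription factor genes, 74 of them expressed, 12 were called for PTS2 and 1 for PTS3 as deposited and 7 and 2 after rescaling. These counts are to be read against the shares of all expressed genes, 11.1% and 2.09% as deposited and 7.65% and 4.88% after rescaling. The median of the expressed members, 0.256, was close to the 0.228 of all expressed genes. Irx3, a homeobox gene of tubule patterning, was at 22.0, 15.7, 20.9, 19.1 and 12.8 TPM in PTS2 and at 3.38, 5.08 and 2.81 TPM in PTS3 (2.02 ± 0.26, adjusted p = 5.83e-08). Ppargc1a, a coactivator of mitochondrial genes, was at 10.2 to 15.2 and 0.96 to 2.97 TPM (2.41 ± 0.19, adjusted p = 3.81e-13). Hif1a, Rxra, Srebf1 and Hnf4g were higher in PTS2 by 1.31 to 1.48 log2 units. The call of Hnf4g was lost with a pseudocount of 5 (0.67) and with the length trend removed (0.94), and those of Hif1a, Rxra and Srebf1 with quantile normalization (0.97, 0.97 and 0.94). Esr1, Nr3c1, Vdr, Stat5a and Nr1h4 were called with differences of 1.04 to 1.14 but no longer after rescaling, and for Nr1h4 the mice overlapped. The calls of Esr1 and Nr3c1 were also lost without PTS3 mouse 3 (0.92 and 0.98), and those of Esr1 and Vdr without PTS2 mouse 4 (0.97 and 0.9959). That of Vdr was lost without PTS3 mouse 2 (0.99) and that of Nr1h4 without PTS2 mouse 2 (0.9995). The single gene for PTS3 was Hoxb9, a homeobox gene of posterior position, at 4.59, 5.43, 7.04, 6.25 and 7.05 TPM in PTS2 and at 16.7, 25.4 and 14.5 TPM in PTS3 (-1.43 ± 0.17, adjusted p = 2.25e-08).

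Among the 23 lists, that of serpins and secreted proteins had the most calls for PTS3 as deposited. In a list of 49 serpins and secreted proteins, 9 were called for PTS2 and 5 for PTS3 (9 and 6 after rescaling), with a median of 0.724 over 35 expressed members. The binding protein gene Igfbp4, which sequesters insulin-like growth factors, was at 379.8 to 581.4 TPM in PTS2 and 1.01 to 9.26 TPM in PTS3 (6.57 ± 0.42, adjusted p = 2.24e-16), and transthyretin gene Ttr at 27.6 to 83.4 and 0 to 1.39 TPM. The 5 genes for PTS3 were all serpins: Serpina1a, Serpina1b, Serpina1f, Serpine2 and Serpina1d, the last of which was named after its values were seen. Serpina1b, a form of alpha-1-antitrypsin, was at 9.97, 10.3, 6.99, 5.57 and 9.32 TPM in PTS2 and at 60.05, 42.02 and 62.05 TPM in PTS3 (-2.50 ± 0.26, adjusted p = 3.25e-10). Serpina1f was far more abundant, at 410.3 to 591.1 and 1128 to 1254 TPM (-1.23 ± 0.33, adjusted p = 0.00665). Serpina1a and Serpina1b share 57.6% and 29.5% of their 50-base stretches with other members of the cluster, so their separate levels are uncertain. Serpine2, an inhibitor of thrombin and plasminogen activators, was at 2.63 to 4.27 and 10.9 to 20.4 TPM (-1.84 ± 0.46, adjusted p = 0.00274).

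Other genes with large differences in favour of PTS3 belonged to none of the lists. Cryab, a small heat shock chaperone, was at 157.7, 135.1, 201.6, 184.5 and 234.3 TPM in PTS2 and at 759.9, 794.1 and 970.1 TPM in PTS3 (-2.23 ± 0.21, adjusted p = 3e-11). The septin gene Sept4 was at 4.18, 3.18, 4.9, 3.1 and 5.35 TPM and at 28.3, 21.1 and 41.1 TPM (-2.55 ± 0.24, adjusted p = 1.86e-11). The X-linked homeobox gene Rhox6 was at 4.64 to 9.8 and 37.9 to 42.6 TPM (-2.53 ± 0.21, adjusted p = 1.72e-12), listed at 0 in all PTS1 mice, and shares 16.5% of its stretches with Rhox9. Tmlhe, the first enzyme of carnitine synthesis, was at 5.79 to 17.1 and 44.3 to 55.0 TPM (-2.44 ± 0.23, adjusted p = 6.27e-11), and the noncoding host gene Mir99ahg at 4.88 to 10.2 and 23.2 to 38.0 TPM (-2.03 ± 0.25, adjusted p = 2.25e-08). In favour of PTS2, Pigr, the receptor that carries immunoglobulin A across epithelia, was at 51.8 to 119.9 and 0.07 to 0.16 TPM (6.16 ± 0.26, adjusted p = 3.81e-22), and Fam151a at 94.4 to 158.6 and 0 TPM.

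Of 43 injury and repair genes, 26 of them expressed, 3 were called for PTS2 and 0 for PTS3, a share near the 11.1% of all expressed genes called for PTS2. Of 31 early-response genes limma called 0 in either direction, also with PTS2 and PTS3 alone in the fit (2 higher in PTS2 and 0 higher in PTS3 at an unadjusted p below 0.05), with medians of 0.101 and 0.22 over 26 and 18 expressed members. Prom1, a membrane protein of progenitor-like tubule cells, and Il34, a macrophage growth factor, were at 15.99 to 25.6 and 46.1 to 76.6 TPM in PTS2 and at 3.37 to 6.96 and 22.0 to 36.4 TPM in PTS3. The call of Il34 was lost without PTS3 mouse 2 (adjusted p = 0.0569). The stress gene Gadd45g spread widely within both segments, from 14.96 to 271.7 TPM in PTS2 and from 31.1 to 122.8 TPM in PTS3, and was not called.

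Of the 10 most abundant genes of each segment 4 were common to both: Kap, Malat1, Fth1 and Napsa. In the PTS3 set 7 of the 10 were called for PTS3: mt-Nd1, mt-Cytb, mt-Co1, mt-Nd2, mt-Nd4, Malat1 and Gm37376. In the PTS2 set 1, Cyp4b1, was called for PTS2 and 1, Malat1, for PTS3. Over all expressed genes 11.1% were called for PTS2 and 2.09% for PTS3. Each set was chosen by level in its segment, which favours genes higher there, so these counts only describe the sets. The ferritin gene Fth1 was at 15063.9 to 16072.9 TPM in PTS2 and 13129.9 to 15560.4 TPM in PTS3, and the aspartic protease gene Napsa at 8114.5 to 11495.8 and 11255.3 to 14107.7 TPM; mice overlapped for both. Across the expressed genes, pieces of different mice correlated at a median r of 0.983 within PTS2 (25 pairs) and 0.95 within PTS3 (12 pairs), and pieces of the 2 segments at 0.918 (48 pairs). The pieces of PTS3 were less alike than those of PTS2: the median absolute difference between pieces of 1 mouse was 0.317 to 0.349 in PTS3 and 0.133 to 0.221 in PTS2. Genes are not independent replicates, and these values describe the samples only.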

How the data were processed

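Tubules were microdissected from male C57BL/6 mice, and per the labels' protocols RNA was extracted with Direct-zol, the SMARTer V4 kit was used for cDNA, and Nextera XT for the libraries. The authors deposited TPM for 54532 genes; the submitters' processing notes name STAR 2.5.4a and RSEM 1.3.0 without saying how they were used. The genome build and annotation are not given in the sources used here. All 93 tubule and glomerulus columns were used and the authors' mean columns were not. The PTS2 column named for mouse 2 carries piece letter b, while the sample title of PTS2 mouse 2 carries letter a. This column was taken as a PTS2 mouse and analysed without its number.

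Pieces of each mouse were averaged as log2(TPM + 1) for the test, and mouse levels printed are plain means over pieces. The 53 combinations of mouse number and segment were treated as 53 mice, since the design states that many, so mice are separate between segments. A gene was kept if 3 or more mice of any group had a TPM of 1 or more. limma 3.58.1 (lmFit and eBayes with trend) in R 4.3.3 was fitted over 15 groups, with Benjamini-Hochberg adjustment over 33793 genes, a threshold of 0.05 and a log2 difference of at least 1. On simulated data with 200 genes changed by 2 log2 units, it recovered 99.5% of them and called 8 others. The changed genes were drawn from those with higher levels, and the noise was normal and independent between genes. The median size of the called differences was 1.28 for PTS2 and 1.26 for PTS3. The share recovered therefore does not cover differences near 1 or genes of low TPM.

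Transcript lengths came from GENCODE M21, matched by gene identifier for 99.93% of the genes used. The uniqueness of each named gene except Tmlhe, for which no transcript was matched, was checked as the share of its 50-base stretches that also occur in transcripts of another gene. Genes were named by a fixed rule, starting with the 2 markers. It added the 12 largest differences in each direction outside the mitochondrial genome, with at least 10 TPM and no overlap of mice. It also took up to 4 such genes per direction in each list and the 2 most abundant members not called. Called transcription factors and the 10 most abundant genes of each segment completed it. RefSeq promoters were found for 125 of 167 named genes. The comparison, lists and rule were chosen with earlier results of these data known. Alternatives were pseudocounts of 0.1 and 5, other filters, median ratio and quantile scaling, other sets of groups in the fit, a replicate block and each mouse left out. Some genes that the rule names are not reported here. Single-cell samples (3) were not analysed here. Figures used matplotlib.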

Additional observations from a re-analysis of the deposited data

Results flagged for a closer look

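Of 167 named genes, 5 had a PTS2 mouse that stood apart from the other 4, the gap to its neighbour exceeding 0.71 of the range of the 5 mice; chance alone flags about 1 in 20, and groups of 3 mice were not tested. Ugt2b37 was at 291.7 TPM in mouse 4 against 427.1 to 457.8 TPM in the others. Cyp2a5 was at 113.3 TPM in mouse 5 against 45.8 to 59.2 TPM. Hif1a was at 35.3 TPM in mouse 4 against 26.0 to 27.5 TPM. Slc7a13 was at 1941.8 TPM in mouse 3 against 2058.8 to 2089.7 TPM. Pdzk1ip1 was at 599.5 TPM in mouse 2 against 715.0 to 746.0 TPM. In each of the 4 genes that were called, the mouse set apart still lay on the PTS2 side of every PTS3 mouse.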

How the results depend on the processing

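With pseudocounts of 0.1 and 5 in place of 1, the calls numbered 2640 and 763, with 2275 and 663 higher in PTS2 and, for the pseudocount of 5, 100 higher in PTS3. Median ratio rescaling gave 625 genes higher in PTS3, and quantile normalization 673 higher in PTS2 and 389 higher in PTS3. Chosen after seeing the data, leaving out mitochondrial transcripts and Kap gave 885 and 446, and removing the length trend with PTS2 and PTS3 alone in the fit 739 and 526, against 1384 and 279 for that fit with the trend kept. Other filters, other sets of groups in the fit and averaging before the log kept all 3 counts within 1.5 times. Leaving out each mouse gave 1184 to 1568 genes higher in PTS2 and 226 to 299 higher in PTS3, 1431 to 1808 in all. Mouse number as a replicate block gave 1362 and 277. Deviations of same-numbered mice correlated at -0.0175 for number 1 and -0.00659 for number 3, so the numbers were not taken as pairs. PTS2 mouse 2 was analysed without its number, so number 2 was not checked. Of 122 named genes called, 36 lost the call under at least 1 alternative, 80 kept it under all 21, and 6 kept it under the 20 that gave them a value (5 mitochondrial genes, not in the fit without mitochondrial transcripts, and Tmlhe, which had no transcript length). Lost calls numbered 24 with quantile normalization, 14 over the fits that left out a mouse, 13 with a pseudocount of 0.1, 13 without mitochondrial transcripts and Kap, 12 with median ratio rescaling, 10 with the length trend removed, 9 with the replicate block, 7 with a pseudocount of 5, 2 with no filter, and 1 each with pieces averaged before the log and with PTS1, PTS2 and PTS3 alone in the fit. With a pseudocount of 0.1 they included Amn, Cyp7b1, Serpina1f, Slc22a2 and Slc39a14, and with quantile normalization Malat1, Hif1a, Rxra, Srebf1 and Lgmn. Of the named genes not called, 8 gained a call under at least 1 alternative (Acsm2, Akr1a1, Fth1, Gpx3, Kap, Miox, Slc27a2 and Slc47a1), 6 of them with PTS2 and PTS3 alone in the fit. Among the named genes no called gene changed direction. Their values that were called in neither setting changed sign 32 times, Fth1, Ghr and Gadd45g among them after rescaling. Depth is unknown, so genes near 0 TPM carry an error that cannot be stated, and PTS3 rests on 3 mice. The causes of these shifts were not tested.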

Other observations

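The 3 PTS2 mice with 2 pieces differed in both markers between pieces of the same mouse, labelled a and b. Cyp2e1 was at 1570.5 (a) and 574.8 (b) TPM in mouse 3, at 871.6 and 548.0 TPM in mouse 4 and at 1675.9 and 727.1 TPM in mouse 5. Akr1c18 in the same pieces was at 146.4 and 244.0, 117.4 and 151.9, and 238.8 and 301.0 TPM, so in these 3 mice piece a had more Cyp2e1 and less Akr1c18. Kap and the mitochondrial transcripts, both higher in PTS3 mice, were also higher in piece a: Kap was at 45352 and 34727, 29591 and 25230, and 54632 and 40388 TPM, and the mitochondrial share at 1.65% and 1.22%, 0.853% and 0.829%, and 2.95% and 1.63%. Of the 11 other genes with the largest difference in favour of PTS2, 10, 8 and 10 were higher in piece a. The same 11 genes, at their low PTS3 levels, were higher in piece a for 8, 7 and 5 and in piece b for 0, 1 and 2 in the 3 PTS3 mice. The 12 genes with the largest difference in favour of PTS3 were taken outside the mitochondrial genome. Of these 12 genes, 10, 6 and 9 were higher in piece b of the PTS2 mice and 9, 7 and 5 in piece b of the PTS3 mice. These 12 still include Akr1c18, whereas Cyp2e1 was left out of the 11 genes above. Both sets were chosen from these same samples, so the tallies are a description only. Akr1c18 in the PTS3 pieces was at 911.2 and 1005.3, 698.8 and 931.9, and 1102.2 and 1084.5 TPM. Over all genes called the split was uneven: of 1333 higher in PTS2, 645, 858 and 389 were higher in piece a, and of 255 higher in PTS3, 186, 99 and 141 were higher in piece b. Over all expressed genes the median log2 difference of piece a minus piece b was -0.0931, 0.0312 and -0.119 in the same mice, and its part in this split was not tested. The labels give no meaning or position for the letters, and this pattern was noticed after the values were seen.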
